A study of Bos taurus with 81 samples.

Results

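The regions described here are 15564 bins of 5 kb on the cattle autosomes that lay under peaks of both H3K27me3 and H3K9me3 at the 4-cell and 8-cell stages. They make up 3.13% of the 497598 autosomal bins, or 77.8 Mb. The bins were chosen from measured values: the 29 autosomes were cut into bins from position 0, a bin was called marked in a library where peaks covered at least 50% of it, and a member had to be marked in all 8 lists, which are the H3K27me3 and H3K9me3 lists of the 4-cell and 8-cell embryos. The 4-cell and 8-cell values of these 2 marks therefore describe the choice and support nothing. The other 7 groups, the active marks and open chromatin were not used in it.

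The study mapped 4 histone marks (H3K4me3, H3K27ac, H3K27me3 and H3K9me3) by CUT&Tag in cattle oocytes and embryos of 9 groups with 2 libraries each, and open chromatin by ATAC-seq in 3 of the groups with 3 libraries each, 81 libraries in all. CUT&Tag uses an antibody to bring a transposase to the mark, which tags the DNA around it. ATAC-seq uses the transposase alone, which tags accessible DNA. Ovaries came from a slaughterhouse, and oocytes were matured in vitro and fertilised with frozen-thawed semen. The groups were germinal vesicle oocytes taken before maturation (GV), 2-cell embryos at 32 h after insemination (2C), 4-cell embryos at 44 h (4C), 8-cell embryos at 56 h (8C), 8-cell embryos of the same age cultured with 50 µg/ml α-amanitin (8A), morulae at 122 h (MO) and blastocysts at 172 h (BL). The last 2 groups were parts of blastocysts, namely the inner cell mass freed by immunosurgery (ICM) and the trophectoderm cut off with a blade (TE). α-Amanitin inhibits RNA polymerase II, and 8A was made to compare the chromatin of the 8-cell stage with and without the embryo's own transcription, which was not itself measured. Whether the pair of libraries of a group came from separate pools of embryos is not stated, so the spread between them may be technical. No p-value is given: 2 libraries against 2 cannot pass a threshold of 0.05 in an exact test, and neighbouring bins are not replicates. Purity of ICM and TE was not checked, because no RNA was measured and gene positions on this build were not analysed here.

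H3K27me3 is laid down by Polycomb repressive complex 2 and is known from silent genes that control development. H3K9me3 is bound by HP1 proteins and is typical of heterochromatin, where it keeps repeats and transposable elements silent. H3K27ac and H3K4me3 are marks of active enhancers and promoters, and in mammalian oocytes H3K4me3 can also form broad domains away from promoters. In mammals the genome passes from the oocyte's chromatin to that of the embryo during cleavage, and in cattle the main onset of embryonic transcription falls at about the 8-cell stage. Each mark was profiled in its own libraries. A bin with both marks may therefore carry them in the same cell, in different cells or on different chromosome copies, which cannot be told apart. Nor can fewer marked cells be told apart from less of the mark per cell.

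As a description of the choice, the members were 90.1% of the 17270 bins with H3K27me3 in all 4 of its lists and 67.6% of the 23017 bins with H3K9me3 in all 4 of its lists. These sets were 3.47% and 4.63% of all autosomal bins. Only 144 bins had H3K27me3 in all 4 lists and H3K9me3 in none, and 358 had the reverse. Within the members, 81.9% of the bases lay under all 8 lists, with a median of 4400 bases per bin, and 6422 bins (41.3%) were covered in full. A single member had no base under all 8 lists. At the threshold, 1359 members (8.73%) had a lowest coverage of 50 to under 60%, and 1847 bins with a lowest coverage of 40 to under 50% fell just outside.

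Outside the choice, the members carried mostly H3K9me3 alone in the oocyte, both marks from 2C on through cleavage, and mostly neither at MO and later. H3K27me3 marked 28.4% and 30.1% of the members in the GV libraries, 70.9% and 82.7% at 2C, 94.9% and 96.0% at 8A, and 26.6% and 25.4% at MO. Over all autosomal bins the same libraries marked 9.78% and 9.80%, 4.49% and 5.39%, 6.02% and 6.34%, and 6.70% and 6.09%. The 2C libraries lay above both GV libraries on the members although they marked fewer bins of the genome, and the MO libraries lay below every earlier group. The mean was 29.2% ± 1.18 at GV, 76.8% ± 8.33 at 2C and 26.0% ± 0.822 at MO (SD, n = 2).

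H3K9me3 was on more of the members in the oocyte. It marked 74.5% and 75.2% of them in the GV libraries, 89.7% and 89.8% at 2C, 98.6% in each 8A library, and 27% and 33.4% at MO. Over all bins the values were 7.75% and 7.65% at GV, 5.24% and 5.22% at 2C, 7.48% and 7.41% at 8A, and 4.51% and 5.81% at MO. No library of MO overlapped an earlier group, and the means were 74.9% ± 0.554 at GV, 89.7% ± 0.00454 at 2C, 98.6% ± 0.0454 at 8A and 30.2% ± 4.50 at MO (SD, n = 2).

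In blastocysts the members stayed at this lower level. H3K27me3 marked 36.9% and 35.3% at BL, 26.2% and 27% in ICM, and 36.3% and 36.9% in TE, against 10.1% to 11.6% of all bins. H3K9me3 marked 29.3% and 35.5% at BL, 19.9% and 23.0% in ICM, and 36.6% and 35.9% in TE, against 3.94% to 6.42% of all bins. By mean, the 1706 bins with H3K27me3 in all 4 lists but H3K9me3 in fewer carried more of both marks. There H3K27me3 marked 54.9% at BL, 46.6% in ICM and 53.5% in TE, and H3K9me3 36.4%, 31.2% and 46.8%. The 7453 bins with the reverse carried less, with H3K27me3 on 26.9%, 20.3% and 27.4%, and H3K9me3 on 18.6%, 13.5% and 23.8%. A level above all bins was thus not particular to the members. For both marks ICM lay below TE on the members with no overlap of libraries, and for H3K9me3 BL overlapped MO. Covered length differed between lists, from 110.0 to 281.5 Mb for H3K27me3 and from 96.6 to 187.5 Mb for H3K9me3, and its part in these levels was addressed by cutting every list of a mark to the length of the shortest. The cut lists also chose the members anew, 10043 bins, so these values differ in the set of bins as well as in length. With cut lists MO had H3K27me3 on 19.9% of those members, BL on 18.2%, ICM on 13.6% and TE on 18.9%. The higher level at BL than at MO thus turned around, while ICM stayed below TE. GV had 19.1% with cut lists, so MO was then no longer below GV.

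**Figure D1:**
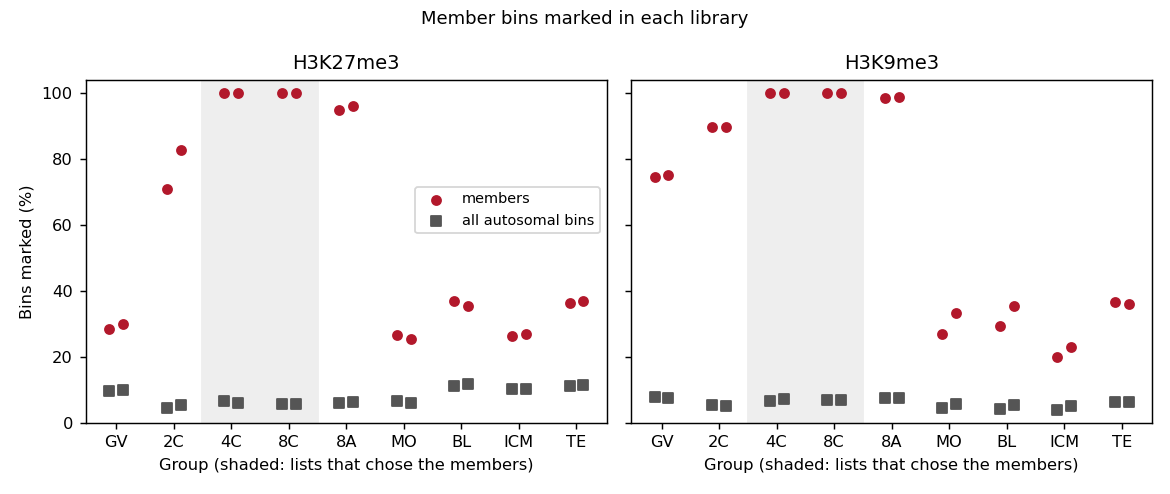
Share of bins marked in each library (percent, y axis) by group (x axis) for H3K27me3 and H3K9me3, with members as red circles and all autosomal bins as grey squares. Shading shows 4C and 8C, whose lists chose the members and are 100% by the rule. H3K27me3 goes from 28.4 and 30.1% at GV to 94.9 and 96.0% at 8A and 26.6 and 25.4% at MO.

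Taking each bin by what both libraries of each mark showed, the oocyte and the 2-cell embryo differed most in H3K27me3. At GV, 9028 members (58.0%) had H3K9me3 only, against 5.33% of all autosomal bins, and 2440 (15.7%) had H3K27me3 only, against 7.01%. Both marks were on 1361 members (8.74%), against 0.436%, and neither on 928 (5.96%), against 79.6%. In the remaining 1807 the libraries of a mark disagreed. At 2C, 9334 members (60.0%) had both marks, against 2.16% of all bins, 1382 (8.88%) had H3K9me3 only, against 0.965%, 290 (1.86%) had H3K27me3 only, against 0.943%, and 221 (1.42%) had neither, against 90.9%. The libraries disagreed on 4337 members at 2C. The largest single path from oocyte to 2-cell embryo was from H3K9me3 only to both marks, taken by 5298 members (34.0%), against 1.22% of all bins. Across the genome, the bins with both marks were 5.75% of the H3K27me3 bins and 7.19% of the H3K9me3 bins at GV, and 61.4% and 55.1% at 2C. At 8C they were 87.7% and 70.2% (19694 bins), and at MO 31.4% and 42.8% (8461 bins). In TE they were 41.4% and 79.9% (20489 bins), of which 3810 were members. BL had 13499 such bins and ICM 9700. Both marks were thus on no fewer bins of the genome in TE than at 8C, mostly outside the members. The H3K27me3 lists were longer in TE than at 8C, and the part of this was not tested.

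The state was also found in embryos grown with α-amanitin. At 8A, 14161 members (91.0%) carried both marks, against 4.42% of all bins, 159 (1.02%) had H3K9me3 only, against 0.654%, 9 (0.0578%) had H3K27me3 only, against 0.144%, and 11 (0.0707%) had neither, against 90.4%. Between 8C and 8A, H3K27me3 was lost (marked in both 8C libraries and in neither 8A library) in 223 members (1.43%), against 8.88% of all bins that were marked in both 8C libraries. H3K9me3 was lost in 40 members (0.257%), against 6.69%. These backgrounds contain the members, which also had to be marked at 4C, unlike the rest. A measure with replicate error came from choosing bins with 7 lists and looking at the list left out: 92.8% to 95.8% of such bins were marked in a left-out H3K27me3 list, and 93.4% to 95.2% in the 8A libraries. For H3K9me3 the ranges were 98.2% to 98.9% in a left-out list and 98.3% to 98.5% in 8A. For both marks the α-amanitin libraries fell within the range of the untreated libraries left out. The other library of the stage and the neighbouring stage chose these bins, so high shares were built in. An effect of α-amanitin was therefore not tested here. By mean, H3K27me3 at 8A was on 73.8% of the 1706 bins with it in all 4 lists but H3K9me3 in fewer. It was on 40.2% of the 358 bins with H3K9me3 in all 4 lists and H3K27me3 in none. H3K9me3 at 8A was on 84.9% of the 7453 bins with it in all 4 lists but H3K27me3 in fewer.

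Most of the members had neither mark at MO. There, 9441 members (60.7%) had neither, against 89.2% of all bins, 2732 (17.6%) had both, against 1.7%, 964 (6.19%) had H3K9me3 only, against 1.88%, and 510 (3.28%) had H3K27me3 only, against 3.09%. From 8C to MO, H3K27me3 was lost in 11133 members (71.5%), against 69.4% of all bins marked in both 8C libraries, and H3K9me3 in 10221 (65.7%), against 71.4%. The 15564 members are most of the 22467 H3K27me3 bins and of the 28063 H3K9me3 bins in these backgrounds. The closeness of the shares therefore says little about the bins with both marks. Non-members with a mark in all 4 of its lists give a comparison without this overlap. H3K27me3 was on 43.0% of its 1706 such bins at MO, against 26.0% of the members. H3K9me3 was on 16.3% of its 7453 such bins, against 30.2% (means). At MO the 1706 bins also had H3K9me3 on 36.0%, above the members, and the 7453 bins had H3K27me3 on 15.7%. These non-members were not free of the other mark. At 4C the mean share with H3K9me3 was 57.1% of the 1706, and that with H3K27me3 was 58.6% of the 7453.

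In blastocysts and their parts neither mark was again the most frequent state and both marks the next. At MO more members had H3K9me3 only than H3K27me3 only, and at BL, ICM and TE the order was the reverse, narrowly in TE. The H3K27me3 lists were longer in those groups than at MO. With cut lists, and members chosen from them, H3K9me3 marked more members than H3K27me3 at BL (30.0% against 18.2%). The same held in ICM (19.1% against 13.6%) and TE (29.2% against 18.9%). Whether the reversed order of single marks holds at equal list length was not tested. At BL, 8171 members (52.5%) had neither mark, against 85.7% of all bins, 3195 (20.5%) had both, against 2.71%, 1279 (8.22%) had H3K27me3 only, against 5.85%, and 872 (5.60%) had H3K9me3 only, against 0.685%. In ICM, 10063 (64.7%) had neither, against 86.2%, 2010 (12.9%) had both, against 1.95%, 1219 (7.83%) had H3K27me3 only, against 5.63%, and 605 (3.89%) had H3K9me3 only, against 1.14%. In TE, 8051 (51.7%) had neither, against 85.8%, 3810 (24.5%) had both, against 4.12%, 1021 (6.56%) had H3K27me3 only, against 4.45%, and 996 (6.40%) had H3K9me3 only, against 0.736%. In 6986 members (44.9%) neither mark was called in all of MO, BL, ICM and TE, against 79.2% of all bins, and in 1556 (10.0%) both were, against 0.852%. Of the 9441 members with neither mark at MO, 155 (1.64%) had both at BL, against 776 (0.175%) of all 443638 bins with neither at MO. Only 126 members had both marks in every library of all 9 groups.

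**Figure D2:**
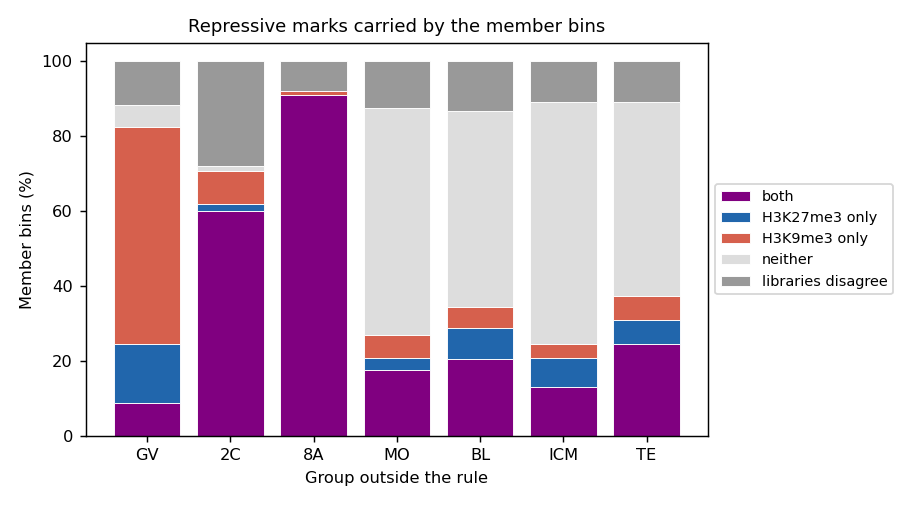
Share of the 15564 members (percent, stacked to 100) by the repressive marks called in both libraries of a group, for the 7 groups outside the choice. Dark grey is the share where libraries of a mark disagreed. H3K9me3 only leads at GV (58.0%), both marks at 2C (60.0%) and 8A (91.0%), and neither from MO (60.7%) on.

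The 2 parts of the blastocyst differed in more members on the TE side. H3K27me3 was in both TE libraries and no ICM library for 1331 members (8.55%), against 1.94% of all bins, and the reverse for 170 (1.09%), against 1.16%. H3K9me3 was in TE only for 1662 members (10.7%), against 1.98%, and in ICM only for 65 (0.418%), against 0.845%. Of the 2010 members with both marks in ICM, 1880 (93.5%) also had both in TE. The matching share over all bins is not given here. The ICM came from immunosurgery and the TE from cutting, so cell type and method of isolation cannot be told apart.

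The state in the oocyte divided the members into bins with different later courses. This split was made after the values had been seen. Of the 2440 members with H3K27me3 only at GV, 1618 (66.3%) had both marks at MO and 176 (7.21%) had neither. Of the 9028 with H3K9me3 only at GV, 314 (3.48%) had both marks at MO and 7186 (79.6%) had neither. Bins with the same state at GV that were not members give the comparison: of 32433 such bins with H3K27me3 only, 9.96% had both at MO and 49.7% had neither, and of 17498 with H3K9me3 only, 1.17% had both and 89.0% had neither. The course to both marks at MO was thus 66.3% in members and 9.96% in other bins of the same oocyte state.

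Library by library, the members with H3K27me3 only at GV mostly carried H3K9me3 as well from 2C on. H3K9me3 marked 69.8% and 72.2% of them at 2C, 99.1% and 98.9% at 8A, 69.8% and 79.5% at MO, 72.3% and 80.1% at BL, 57.6% and 65.0% in ICM, and 83.0% and 81.5% in TE. H3K27me3 on them was 89.4% and 87.9% at MO, 90.4% and 89.3% at BL, 86.0% and 85.5% in ICM, and 88.2% and 88.9% in TE. H3K27me3 was above 80% of these bins in every library from 2C on, and H3K9me3 was lowest in ICM.

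The members with H3K9me3 only at GV mostly carried H3K27me3 as well at 2C and 8A, and mostly had neither mark from MO on. H3K27me3 marked 64.9% and 79.0% of them at 2C, 93.3% and 94.7% at 8A, but 7.20% and 6.47% at MO, 18.0% and 16.5% at BL, 8.55% and 9.37% in ICM, and 18.3% and 18.6% in TE. H3K9me3 marked 95.9% and 94.8% at 2C, 98.4% and 98.6% at 8A, 13.0% and 17.8% at MO, 15.5% and 20.4% at BL, 8.39% and 10.2% in ICM, and 20.7% and 20.1% in TE. From MO on, no library of either mark reached the level of the members with H3K27me3 only at GV. Of 9552 pairs of adjacent members, 6130 had a single mark at GV in each bin, and 8 of these (0.131%) had different marks. Broad peaks span adjacent bins, and pairs with a bin of any other state were left out. A low share was therefore to be expected and says little about blocks.

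The active marks set the 2 kinds of member apart as well. In the oocyte, H3K4me3 peaks covered 52.2% and 62.3% of the bases of the members with H3K27me3 only, and 0.482% and 0.645% of those with H3K9me3 only. In 1340 of the 2440 members with H3K27me3 only (54.9%), H3K4me3 covered at least 50% of the bin in both GV libraries, against 3 of the 9028 with H3K9me3 only and 2.60% of all autosomal bins. On the first kind H3K4me3 was still 24.1% and 39.5% at 8C, and 29.1% and 25.1% at 8A, and then 0.577% and 0.615% at MO. Other bins with H3K27me3 only at GV had 26.9% to 33.1% under H3K4me3 at GV, so broad H3K4me3 also lay on that oocyte state outside the members.

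H3K27ac peaks went the other way at MO. On the members with H3K9me3 only at GV they covered 1.16% and 0.897% at 8C, 1.96% and 2.00% at 8A, 13.2% and 10.2% at MO, and 13.7% and 12.0% in ICM. Other bins with H3K9me3 only at GV had 1.86% to 2.04% at 8C, 7.43% to 8.54% at MO and 6.75% to 7.39% in ICM, so a higher level at MO was not particular to the members. On the members with H3K27me3 only at GV they covered 1.35% and 1.09% at 8C, 9.04% and 9.38% at 8A, 3.21% and 2.76% at MO, and 2.19% and 1.71% in ICM. The members with H3K9me3 only were above those with H3K27me3 only from MO on, and below them at 8A, with no overlap of libraries. The higher H3K27ac at 8A than at 8C was also found on the other bins with H3K27me3 only at GV, which had 6.00% and 6.31% at 8C and 13.7% in each library at 8A. The difference in means was 7.54 percentage points on those other bins and 7.99 on the members.

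**Figure D3:**
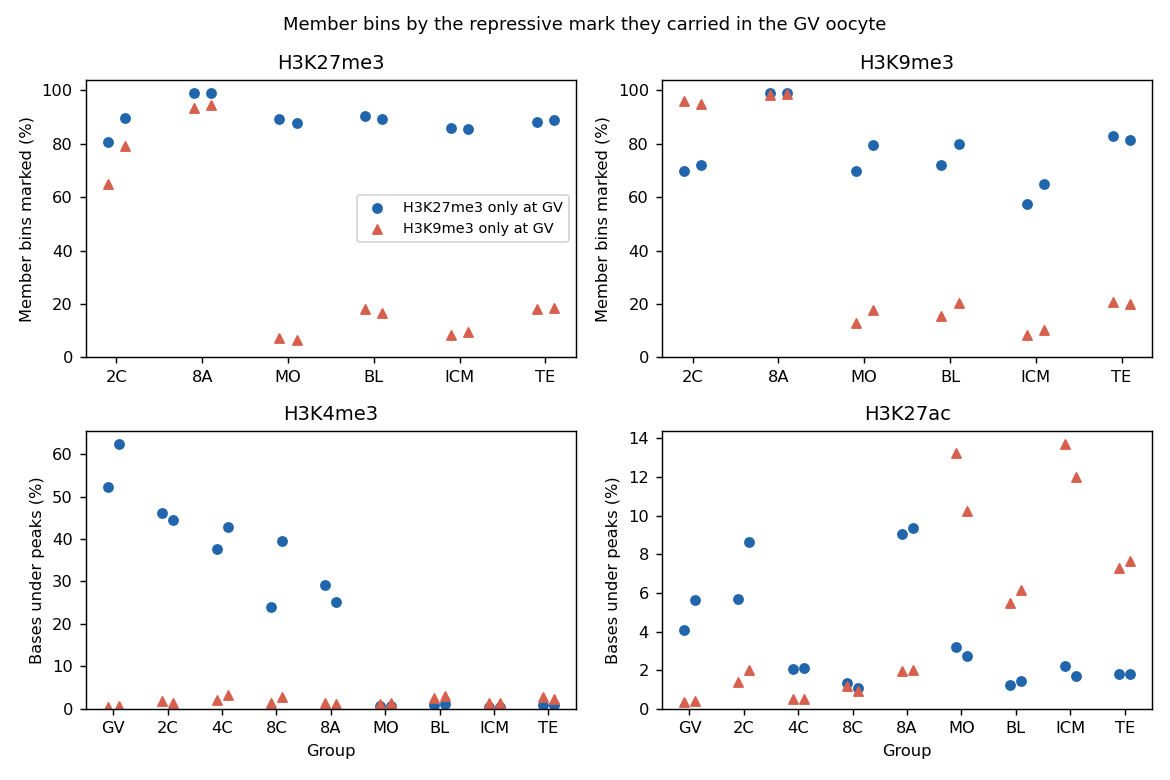
Members with H3K27me3 only (2440 bins, blue circles) or H3K9me3 only (9028 bins, red triangles) at GV, each point 1 library. The upper panels give the share of bins marked (percent) and the lower panels the share of bases under peaks (percent, axes of different range), by group. H3K27me3 at MO is 89.4 and 87.9% against 7.20 and 6.47%, and H3K27ac at MO is 3.21 and 2.76% against 13.2 and 10.2%.

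Over all members, H3K27ac was below the genome at GV, 4C, 8C and 8A, and above it from MO on. An excess at 2C was not kept with cut lists. It covered 2.46% and 2.93% of the members at GV, where all bins had 5.09% and 5.70%. At 2C it covered 2.44% and 3.53%, against 2.21% and 2.72%, and at 4C 0.891% and 0.907%, against 1.75% and 1.77%. At 8C it covered 1.34% and 1.05%, or 1.2% ± 0.207 (SD, n = 2), against 3.64% and 3.61% of all bins, a ratio of 0.291 to 0.369, and at 8A 3.27% and 3.41%, against 4.05% and 3.93%. At MO it covered 10.9% and 8.77%, against 4.63% and 4.53%, and in ICM 11.2% and 9.76%, against 3.95% and 3.67%. BL had 4.59% and 5.13% and TE 6.09% and 6.25%, against 1.97% to 2.42% of all bins. In all 4 of the later groups each library was above its own value over all bins. With lists cut to a single length, and the 10043 members these gave, the 8C mean was 0.482%. The ratio to all bins was 0.250 to 0.302 at 8C and 2.46 to 2.85 at MO, so the direction was kept there. At 2C the ratio was 0.981 to 1.08, on either side of the genome.

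Counted by bins with any H3K27ac base, 3256 members (20.9%) gained a peak from 8C to MO, against 8.39% of all bins, and 133 (0.855%) lost one, against 4.94%. Both are shares of all bins of a set, and members had less H3K27ac to lose at 8C. From 8C to 8A, 1194 members (7.67%) gained H3K27ac, against 6.09%, which is near the background, and 159 (1.02%) lost it, against 2.87%. H3K27ac at MO was highest on members with neither repressive mark there. It covered 16.1% and 12.8% of the 9441 members with neither mark at MO, 5.47% and 4.24% of those with H3K27me3 only, 3.15% and 2.54% of those with H3K9me3 only, and 1.30% and 1.37% of the 2732 with both. The 7453 bins that carried H3K9me3 in all 4 lists but H3K27me3 in fewer had 10.5% and 8.75% at MO, next to the 10.9% and 8.77% of the members. The 1706 bins with the reverse had 5.28% and 4.99%.

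H3K4me3 was higher in the oocyte than at the morula stage, with no overlap of libraries. It covered 11.5% and 13.9% of the members at GV, against 5.67% and 7.08% of all bins, and 5.73% and 9.98% at 8C (7.86% ± 3.00, SD, n = 2), against 2.76% and 4.52%. At MO it covered 1.29% and 1.55%, against 1.74% and 1.93%. The ratio to all bins, 1.96 to 2.03 times at GV and 2.08 to 2.21 times at 8C, was 0.742 to 0.802 times at MO. Members were above all bins again at BL, with 2.42% and 2.81% (1.30 to 1.39 times), and in TE, with 2.60% and 2.27% (1.26 to 1.39 times). They were below all bins in ICM, with 1.39% and 1.46% (0.920 to 0.944 times). The 7453 bins with H3K9me3 in all 4 lists but H3K27me3 in fewer had 1.30 to 1.39 times at BL and 1.23 to 1.36 times in TE. The 1706 bins with the reverse had 0.708 to 0.785 and 0.729 to 0.752 times. The excess at BL and TE was thus not particular to the members. From 8C to MO, 2174 members (14.0%) lost every H3K4me3 peak, against 5.22% of all bins, and 271 (1.74%) gained one, against 0.837%. These are shares of all bins of a set, not of bins with a peak at 8C. Members had more H3K4me3 to lose at 8C, so a higher rate of loss is not shown. From 8C to 8A, 136 (0.874%) lost it, against 1.16%, and 94 (0.604%) gained it, against 0.183%. The oocyte H3K4me3 differed with the state at MO: it covered 39.9% and 47.8% of the members with both marks at MO and 34.5% and 40.3% of those with H3K27me3 only. It covered 1.69% and 2.42% of those with H3K9me3 only and 2.27% and 2.83% of those with neither. With lists cut to a single length, and the 10043 members these gave, the 8C mean was 2.98%, and the ratio to all bins was 1.7 to 2.3. With these lists the ratio was only 1.06 to 1.07 at BL and 1.07 to 1.16 in TE.

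ATAC-seq peaks covered 7.06%, 12.4% and 14.7% of the members at BL, against 3.25%, 4.15% and 4.69% of all bins. In ICM they covered 7.50%, 8.64% and 6.99%, a mean of 7.71% ± 0.848, and in TE 8.92%, 10.8% and 8.21%, a mean of 9.31% ± 1.34 (SD, n = 3). All 9 libraries were above their own genome-wide value, and ICM and TE overlapped. The ratio to all bins was 2.15 to 2.27 in ICM and 2.46 to 2.76 in TE. The 7453 bins with H3K9me3 in all 4 lists but H3K27me3 in fewer had ratios of 1.88 to 1.95 and 2.18 to 2.38. The 1706 bins with the reverse had 1.34 to 1.41 and 1.39 to 1.43. A level above all bins was thus not particular to the members. Open chromatin differed with the state at MO: the TE libraries covered 11.0% to 14.4% of the members with neither mark and 8.72% to 11.2% of those with H3K27me3 only. They covered 2.97% to 4.04% of those with H3K9me3 only and 2.62% to 3.32% of those with both.

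**Figure D4:**
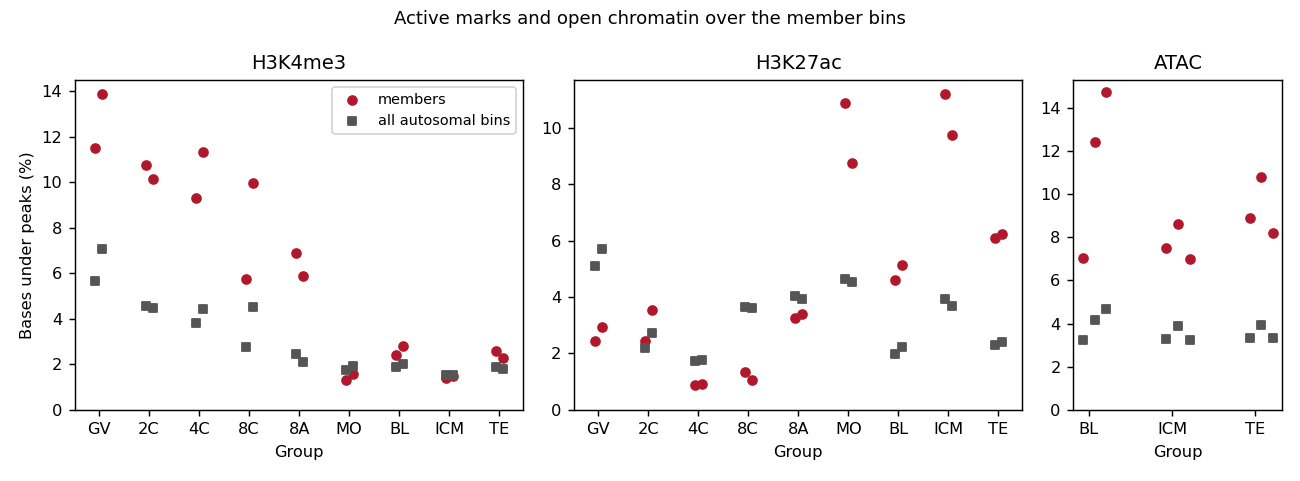
Share of bases under H3K4me3, H3K27ac and ATAC peaks (percent, y axes of different range) by group, with members as red circles and all autosomal bins as grey squares, each point 1 library. H3K27ac on the members is below the genome at 8C (1.34 and 1.05% against 3.64 and 3.61%) and above it at MO (10.9 and 8.77% against 4.63 and 4.53%).

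The members were not spread evenly along the chromosomes. Cattle autosomes are acrocentric, with the centromere near an end. The last 10% of each chromosome, by coordinate, held 6205 members (39.9%), and the last 5 Mb held 4500 (28.9%) with 5.83% of all bins. The first 5 Mb held 1185 (7.61%). The skew was stronger for members with H3K27me3 only at GV, of which 1195 (49.0%) lay in the last 5 Mb, than for those with H3K9me3 only, of which 2074 (23.0%) did. Other bins of the same states at GV had 20.1% and 10.6% there. Of the members in the last 5 Mb, 35.1% had both marks at MO, against 9.15% away from both ends. GC content, repeats and mappability along the chromosomes were not analysed here, and their part in this was not tested.

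**Figure D5:**
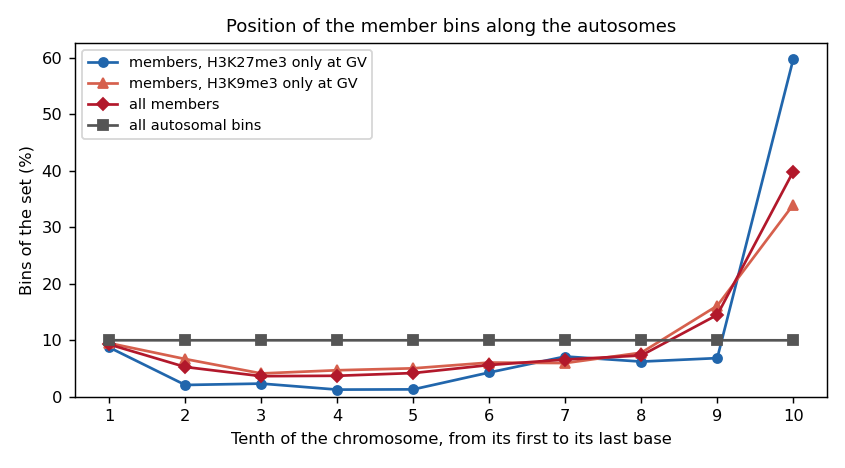
Share of each set of bins (percent, y axis) in each 10% of the chromosome from its first to its last base (x axis), pooled over the 29 autosomes. All members are dark red diamonds, members with H3K27me3 only at GV blue circles, those with H3K9me3 only at GV light red triangles, and all autosomal bins grey squares. The last 10% holds 59.8% of the members with H3K27me3 only at GV, 34.0% of those with H3K9me3 only and 10.0% of all bins.

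Adjacent members formed 6012 runs with a median of 2 bins, and 43.8% of the runs were single bins. The 140 runs of 10 or more bins held 2095 members (13.5%). The longest, chr5:106520001-106725000 (ARS-UCD1.2, 41 bins, 205 kb), carried both marks in the oocyte: H3K27me3 covered 80.5% and 77.3% of it and H3K9me3 85.8% and 88.1% at GV. At MO these were 57.5% and 47.0%, and 57.1% and 70.6%, and in TE 96.0% and 98.0%, and 94.0% and 91.2%. H3K27ac was below 1% of this run in every library.

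The next 2 runs by length followed the course from H3K9me3 only to neither mark. On chr18:8050001-8240000 (38 bins, 190 kb), which is also the longest run with neither mark at BL, H3K9me3 covered 99.6% and 99.7% at GV and H3K27me3 0% and 1.47%. H3K27me3 covered 75.7% and 89.4% at 2C and 99.8% in each library at 8C, and was at 0% from MO on. H3K27ac was at 0% in both libraries at 8C and 8A and then covered 13.6% and 8.24% at MO and 29.6% and 25.5% in ICM. On chr3:91850001-92000000 (30 bins, 150 kb), the longest run with neither mark at MO, H3K9me3 covered 83.9% and 91.3% at GV and H3K27me3 0% in both libraries. H3K27me3 covered 63.6% and 79.7% at 2C, 97.5% and 99.2% at 8C and 0% from MO on, and H3K27ac 14.1% and 9.27% at MO and 32.5% and 26.0% in ICM. Neither run had H3K27ac or H3K4me3 above 0.5% in any library before MO.

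The run chr16:220001-360000 (28 bins, 140 kb) showed the other course. H3K27me3 covered at least 97.1% of it in every library of all groups, while H3K9me3 was at 0% at GV, 87.0% and 87.6% at 2C, and 89.9% and 97.1% at MO. Its H3K4me3 was 40.5% and 60.9% at GV and 0% from MO on, and no ATAC peak lay on it. On chr11:105295001-105400000 (21 bins), the longest run with both marks at MO, H3K9me3 was at 0% at GV and 98.9% and 100% at MO, and H3K27me3 82.5% in each library at GV and 95.8% and 93.7% at MO. H3K4me3 covered 58.8% and 71.8% of it at GV, 48.5% and 66.6% at 8C and 0% from MO on. The longest run with both marks at BL, chr11:104670001-104740000 (14 bins), had the same order: no H3K9me3 at GV, H3K4me3 on 46.1% and 57.1% at GV, and at least 94.0% of each repressive mark at BL and in TE. On chr19:58530001-58670000 (28 bins) H3K9me3 covered 96.0% and 97.7% at GV and 17.0% and 48.6% at MO, and H3K27me3 3.71% and 3.29% at MO, while in TE H3K9me3 covered 90.4% and 83.6% and H3K27me3 22.4% and 20.9%.

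Other named runs carried a single mark at MO or BL. On chr3:118395001-118430000 (7 bins), the longest with H3K27me3 only at MO, H3K27me3 covered 99.4% in each MO library and H3K9me3 0%, and in ICM both were at 0%. On chr4:116335001-116355000 (4 bins), the longest with H3K9me3 only at MO, H3K9me3 covered 92.0% and 96.0% at MO and H3K27me3 0%, and no active mark or ATAC peak lay there in any group. On chr29:47815001-47925000 (22 bins), the longest with H3K9me3 only at BL, H3K9me3 covered 91.8% and 97.5% at BL and H3K27me3 0%, after 66.5% and 48.7% at MO. On chr19:36105001-36150000 (9 bins), the longest with H3K27me3 only at BL and with H3K27me3 in TE but not ICM, H3K27me3 covered 0% at MO, 100% and 94.7% at BL, 0% in ICM, and 94.7% and 94.2% in TE. This run lost both marks by MO and had H3K27me3 again at BL.

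The longest runs with a mark in ICM only or TE only were as follows. On chr29:47660001-47705000 (9 bins) H3K9me3 covered 95.6% and 94.7% in TE and 0% in both ICM libraries. On chr14:4150001-4165000 (3 bins) H3K27me3 covered 98.7% and 100% in ICM and 0% in TE. On chr16:29630001-29640000 (2 bins) H3K9me3 covered 88.0% and 58.0% in ICM and 0% in TE. Each of these 3 runs was picked by the rule for this difference, which is therefore a description. Genes over the runs were not analysed here.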

How the data were processed

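The data are 81 deposited peak lists, 1 for every library. The submitters' processing notes name the ARS-UCD1.2 build, SICER, BWA 0.7.9a, SAMtools 1.9, Picard 2.26.10, Trim Galore 0.4.0 and cutadapt 1.8.3. The file names point to epic2, another caller. How peaks were cut off, controlled and cleared of duplicates is not given in the sources used here. Each deposited list holds positions and a score per peak, of unstated meaning, used only to rank peaks within a list. Peak edges lay on a 200 bp grid for H3K27me3 and H3K9me3 and on a 50 bp grid for the other assays. The lists give no read totals, so depth is unknown and no counting interval could be given.

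Bases of each 5 kb bin under peaks were computed with Python 3.11.15 and NumPy 2.4.6, and figures with Matplotlib 3.10.9. The coverage code was tested on simulated data. Repressive marks were called at 50% of a bin, and a state needed both libraries of each mark. Active marks were measured as bases under peaks. Gained or lost means every library of a group and no library of the other. Named runs were the 5 longest and the longest in each state at MO and BL and in ICM or TE only. Alternatives were a share of 25% or 75%, bins of 10 kb, lists cut by score to the shortest list of the assay, and leaving out each library. The members and lists were chosen with earlier results of these data known, and the split by the state at GV and its alternatives were added after seeing the data. The X chromosome and unplaced scaffolds were left out of the choice. No sequence or gene is given because no genome of this build was used here.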

Additional observations from a re-analysis of the deposited data

Results flagged for a closer look

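On the X chromosome, which the choice of members left out, 307 of 27801 bins (1.10%) were marked in all 8 lists, against 3.13% on the autosomes. H3K9me3 marked 92.8% and 94.1% of these X bins at GV and 54.4% and 59.0% at MO, where it marked 27% and 33.4% of the autosomal members. H3K27me3 marked 46.3% and 41.7% of them at MO, against 26.6% and 25.4% of the autosomal members. In TE the values on these X bins were 66.8% and 66.1% for H3K9me3 and 26.7% and 30.3% for H3K27me3. The difference from the autosomes was not tested, and embryos of both sexes may be pooled.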

How the results depend on the processing

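No paired analysis was possible because no result comes from a test. With cut lists the order of MO against BL and GV turned around for H3K27me3, as given above, and the cause of each move was not tested. Members were chosen anew under each setting. Their count was 19139 with 25% of a bin covered, 10508 with 75%, 10043 with cut lists and 7740 with 10 kb bins. A 10 kb bin is longer than a 5 kb bin, so that last count is not by itself a shorter covered length. With 25% of a bin covered, H3K27me3 was 30.4% at GV, 27.9% at MO, 37.5% at BL, 38.6% in TE and 28.1% in ICM, and H3K9me3 91.2% at 2C, 98.7% at 8A and 37.3% in TE. With 75%, H3K27me3 was 28.0% at GV, 93.5% at 8A, 23.5% at MO, 33.5% at BL, 33.2% in TE and 24.4% in ICM, and H3K9me3 86.6% at 2C, 98.2% at 8A and 34.1% in TE. With 10 kb bins, H3K27me3 was 35.9% in TE and H3K9me3 88.5% at 2C. With cut lists, H3K27me3 was 19.1% at GV, 96.3% at 8A, 19.9% at MO, 18.2% at BL, 18.9% in TE and 13.6% in ICM, H3K9me3 92.1% at 2C, 96.3% at 8A, 19.1% in ICM and 29.2% in TE, H3K4me3 2.98% and H3K27ac 0.482% at 8C. Of members with H3K27me3 only at GV, 63.0% (75% covered) and 74.0% (cut lists) had both marks at MO, and of those with H3K9me3 only, 78.0% (25%), 81.1% (75%) and 81.7% (cut lists) had neither.

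Leaving out each library in turn gave 15740 to 16769 members. H3K27me3 was 28.2% to 30.1% at GV, 70.9% to 82.7% at 2C, 94.1% to 96.0% at 8A, 25.2% to 26.6% at MO, 35.3% to 36.9% at BL, 36.0% to 37.0% in TE and 26.1% to 27% in ICM. H3K9me3 was 74.2% to 75.2% at GV, 87.7% to 89.8% at 2C, 97.9% to 98.6% at 8A, 27% to 33.4% at MO, 29.3% to 35.5% at BL, 35.3% to 36.6% in TE and 19.9% to 23.0% in ICM. At 8C H3K4me3 was 5.73% to 9.98% and H3K27ac 1.05% to 1.34%, and ATAC was 7.24% to 8.07% in ICM and 8.56% to 9.86% in TE. Both at MO was 64.9% to 75.6% of members with H3K27me3 only at GV, and neither at MO 78.8% to 84.0% of those with H3K9me3 only. Depth is unknown, so a bin not marked may be one whose signal was not called.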

Other observations

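The 928 members with neither repressive mark at GV had active marks in the oocyte. H3K27ac peaks covered 18.8% and 21.1% of their bases at GV, against 5.54% to 6.13% of other bins with neither mark, and H3K4me3 24.6% and 29.8%, against 3.81% to 4.82%. By 2C, 384 of them (41.4%) had both repressive marks, and H3K27ac there covered 2.52% and 3.72%. Of the 395279 other bins with neither mark at GV, H3K27me3 was on 0.687% and H3K9me3 on 0.618% at 2C (means). At MO, 190 of the 928 members (20.5%) had both marks and 456 (49.1%) had neither, against 0.406% and 94.1% of those other bins.

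Chromosomes differed in how many members they held and in their course. Members were 7.39% of the bins of chromosome 25 and 7.31% of chromosome 19, the highest shares, and 1.12% of chromosome 9, the lowest. On chromosome 9, 42.7% of the 234 members had both marks at MO and 32.1% had H3K27me3 only at GV. On chromosome 7, 2.77% of the 757 members had both marks at MO and 1.85% had H3K27me3 only at GV. Members of chromosome 7 with H3K9me3 only at GV were 77.1%.

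Members in runs of 10 or more bins had both marks at GV in 18.5% of cases, and single members in 4.93%. Neither mark at MO was found for 53.5% of the first and 62.2% of the second.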
